A study of Mus musculus with 27 samples.

Results

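The genes described here were 10 carbonic anhydrases, Car2, Car3, Car4, Car5b, Car6, Car8, Car9, Car11, Car12 and Car13, of 16 carbonic anhydrase genes and 37991 genes of all kinds in the annotation. They were listed by name, and the list was drawn up with their expression over these same samples in view, so their levels by day are given as a description, and no test of them is reported. The study followed bone-forming cells from the skull vault of neonatal mice, 5 to 9 days of age, of the strain C57BL/6J-Col3.6 CFP, in which a fragment of the type I collagen promoter drives cyan fluorescent protein in cells of the osteoblast lineage. Calvaria were digested with trypsin and collagenase, the released cells grew for 4 days, and cells with the fluorescent protein were sorted and returned to culture in aMEM with ascorbic acid, beta-glycerol phosphate and serum, which all samples shared. RNA was amplified, sequenced and quantified on days 2, 4, 6, 8, 10, 12, 14, 16 and 18 of differentiation. No untreated or undifferentiated control was analysed, and the sort for the fluorescent protein was made once, before differentiation, and the cells of later days were not sorted again.

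Each day was represented by 3 profiles, 27 in all. The 3 profiles of a day carried 1 barcode and differed from each other by no more than sampling noise (chi-square per degree of freedom 0.999 to 1.02, p 0.0513 to 0.537, over genes with whole-number counts of at least 30), so they were counted as 1 library per day. There was therefore no biological replicate of any day, and the SD given for a day's profiles holds only the error of sequencing and of quantification. Summed estimated counts per day ran from 22470195 to 62009157, and 3 counts, taken as the detection floor, corresponded to 0.0484 to 0.134 CPM, counts scaled to a library total of 1000000. All 10 listed markers of the osteoblast lineage were detected, and their levels summed to 3001 TPM at their lowest (day 2) and 9330 TPM at their highest (day 18). Most of that sum came from Col1a1 and Col1a2, with 1526 and 983 TPM on day 2 and 4263 and 4114 TPM on day 18. On day 4 Runx2 was at 42.0 TPM and Spp1 at 979 TPM, while Alpl was at 0.857, Bglap at 0.224 and Ibsp at 0.0965 TPM. By day 18 Alpl was at 17.6, Bglap at 208 and Ibsp at 78.4 TPM, with Runx2 at 62.0 and Spp1 at 532 TPM. Alpl and Sp7 were at 9.13 and 32.3 TPM on day 2, and Sp7 was at 10.6 TPM on day 18. Levels below are TPM, transcript abundances that account for length and are scaled to a total of 1000000, after each profile was brought to a common upper quartile.

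Carbonic anhydrases are zinc enzymes that interconvert carbon dioxide and water with bicarbonate and a proton. They differ mainly in where they act: in the cytosol, in the mitochondrion, on the outer face of the plasma membrane, or in secretions. In bone the family is best known from the osteoclast, in which cytosolic carbonic anhydrase II supplies the protons that dissolve mineral, and loss of that enzyme in people causes osteopetrosis. Some family members, called carbonic anhydrase-related proteins, have lost histidines that hold the zinc ion and do not catalyse the reaction.

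The coding sequences show which members keep those histidines. In Car2, the reference for the family, they are codons 94, 96 and 119, and the stretches of 34 codons around the matching positions are printed because the family's catalytic and related members separate there. They are printed 5′ to 3′ in the sense of each gene, read from the NCBIM37 genome, with the 3 zinc-site codons in capitals. The Car2 stretch (chr3:14895057-14895552, plus strand), the Car3 stretch (chr3:14866838-14868366, plus strand) and the Car13 stretch (chr3:14650694-14654901, plus strand) each join exons 3 and 4, and that of Car11 (chr7:52957906-52958220, plus strand) joins exons 4 and 5, with the intron left out in each.
Car2: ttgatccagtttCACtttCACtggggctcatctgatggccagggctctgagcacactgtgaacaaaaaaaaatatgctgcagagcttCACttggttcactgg
Car3: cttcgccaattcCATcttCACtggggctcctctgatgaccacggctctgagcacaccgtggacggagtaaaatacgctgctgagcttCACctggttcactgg
Car13: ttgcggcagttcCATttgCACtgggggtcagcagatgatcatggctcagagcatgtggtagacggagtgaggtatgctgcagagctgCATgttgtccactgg
Car11: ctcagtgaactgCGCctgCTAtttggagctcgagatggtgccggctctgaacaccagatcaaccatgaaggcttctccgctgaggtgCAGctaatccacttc

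Car3 and Car13 carried a histidine codon (CAT or CAC) at all 3 positions, as did Car4, Car5b, Car6, Car9 and Car12. Car11 had a histidine codon at 0 of the 3 positions, with CGC, CTA and CAG there. Over the aligned codons, 63.5% of bases were identical to Car2 in Car3, 61.2% in Car13 and 58.7% in Car5b, and the share was between 43.3% for Car11 and 49.1% for Car12 in Car4, Car6, Car9, Car11 and Car12.

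Car3, a cytosolic member with low catalytic activity that is abundant in skeletal muscle and fat, covered the widest range of the 8 members with counts on every day, 1431-fold from its lowest to its highest day. Its level was 0.805 TPM on day 2, 0.702 on day 4 and 0.306 on day 6. It was 1.39 TPM on day 8, 5.01 on day 10 and 45.1 on day 12. It was 150.0 TPM on day 14, 256 on day 16 and 437 on day 18. Days 2 to 6 were the lowest and days 14 to 18 the highest, with no overlap between these groups of days, and every day from day 8 was higher than the day before it. In bulk RNA, more cells that express a gene and more of its RNA per cell cannot be told apart, here or for any gene below.

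The counts behind these levels were small at the start and large at the end. Car3 had 29 counts on day 2, 24 on day 4 and 11 on day 6, and day 6 gave 0.255 CPM with an exact 95% Poisson interval of 0.127 to 0.456, above that day's floor of 0.0695. Day 18 had 14451 counts, from 4678, 4852 and 4921 in the 3 profiles, or 325 CPM (95% interval 320 to 330). These intervals cover counting error only. Day 18 was 543-fold higher than day 2 in TPM, and the largest step between neighbouring days was 8.99-fold, from day 10 to day 12. The next steps were 3.33-fold, 1.70-fold and 1.71-fold. Among genes above 0 on a day, Car3 moved from the percentile 30.8 on day 2 to 98.8 on day 18.

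**Figure D1:**
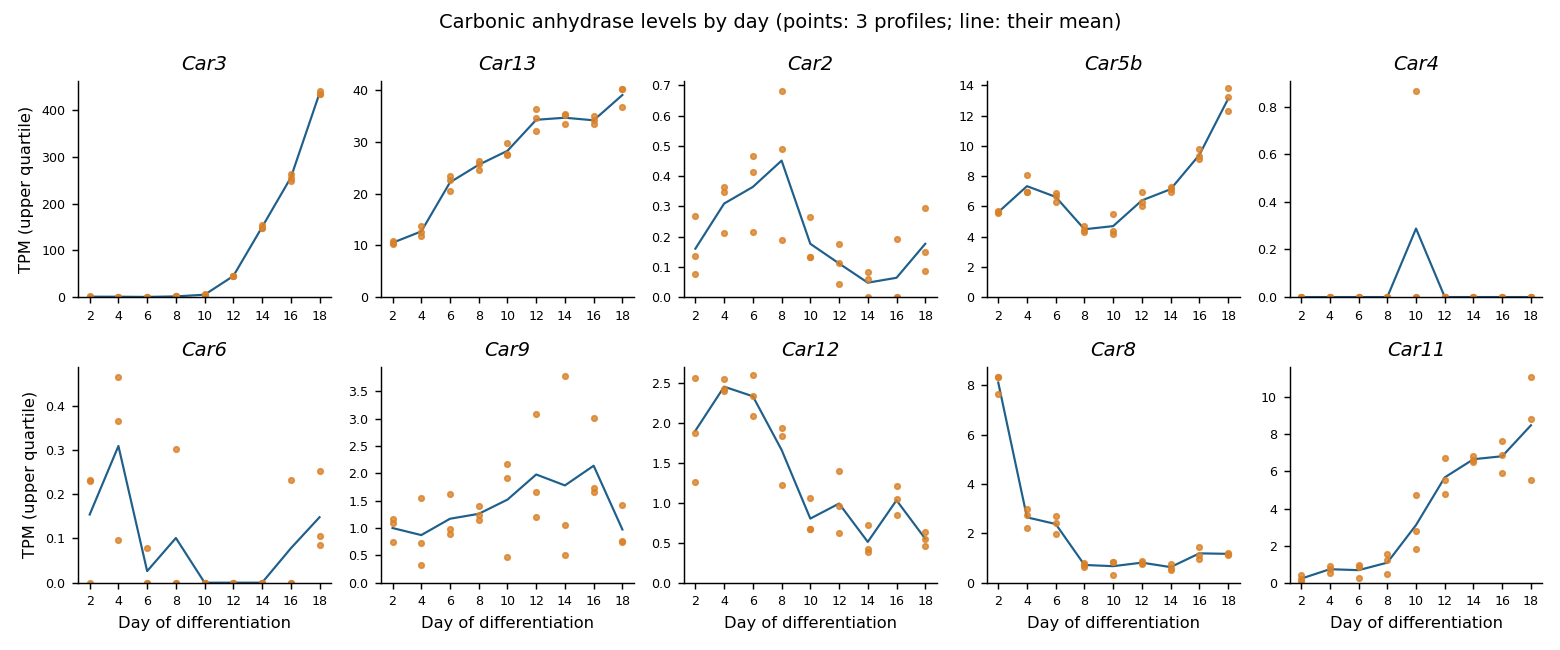
Levels of the 10 carbonic anhydrases (TPM after upper-quartile scaling, vertical axes, each panel with its own linear scale from 0) by day of differentiation (horizontal axes). Points are the 3 profiles of a day and the line is their mean; Car3 lies between 0.306 and 5.01 TPM up to day 10 and reaches 437 TPM on day 18, and Car8 is at 8.12 TPM on day 2 and 1.17 TPM on day 18.

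The plot of levels by day shows these courses beside each other. Car13, another cytosolic member, measured 10.5, 12.7 and 22.2 TPM on days 2, 4 and 6. It was at 25.6, 28.3 and 34.3 TPM on days 8, 10 and 12, and at 34.7, 34.2 and 39.1 TPM on days 14, 16 and 18. Its lowest late day was above its highest early day, and its level between days 12 and 16 was nearly flat. The SD over the 3 profiles of a day was 0.241 to 2.11 TPM, and its steps between neighbouring days ran from 0.985-fold to 1.75-fold, the largest from day 4 to day 6. Day 18 was 3.72-fold higher than day 2.

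Car2, the fast cytosolic enzyme of osteoclasts and red cells, was near the floor in every library. It had 72 counts over all 9 days, between 2 on day 14 and 16 on day 6, and its level was lowest on day 14 (0.0475 TPM) and highest on day 8 (0.451 TPM). The middle of its early days was 0.309 TPM and that of its late days 0.0637 TPM, with overlapping ranges. Osteoclast markers were measured in the same libraries, and all 10 together summed to 64.8 TPM on day 2 and 237 TPM on day 16, while 2 of them, Dcstamp and Calcr, had 0 counts. Ctsk, the protease cathepsin K, made up 36.5 TPM of the day 2 sum and 193 of 230 TPM on day 18. Of the 8 tested, Ctsk, Acp5 and Mmp9 rose, Nfatc1 fell and 4 did not pass. Between days 2 and 18 Acp5 went from 0.618 to 16.8 TPM, Mmp9 from 0.32 to 1.38 TPM and Nfatc1 from 21.0 to 7.57 TPM. Erythroid markers, another source of Car2 and Car1, summed to between 0.344 and 2.81 TPM. What part these cells had in the Car2 level was not tested.

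Car3, Car2 and Car13 are neighbours. Together with Car1 they occupied 259043 bp of chromosome 3 (chr3:14641727-14900769 in NCBIM37), in the order Car13, Car1, Car3 and Car2, and 14074 bp separated the end of Car3 from the start of Car2. The neighbours differed in level on day 18, at 437 TPM for Car3, 39.1 TPM for Car13, 0.176 TPM for Car2 and 0.0844 TPM for Car1. Car1, the red-cell enzyme, had 3 counts in the whole series.

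Car5b, the mitochondrial member, was lowest in the middle of the course. It measured 5.61, 7.33 and 6.62 TPM on days 2, 4 and 6, then 4.48, 4.69 and 6.39 TPM on days 8, 10 and 12, and 7.13, 9.40 and 13.1 TPM on days 14, 16 and 18. Early and late days overlapped, since day 14 was below day 4, and day 18 was 2.34-fold higher than day 2. Its estimated counts were not whole numbers in 23 of the 27 profiles, so part of its reads was shared with other annotated sequence and its level is less certain than that of Car3 or Car13.

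Car9 and Car12 are transmembrane enzymes that work outside the cell, and Car9 is a known target of the hypoxia-inducible factors. Car9 had 336.74 estimated counts in all and was lowest on day 4 (0.871 TPM) and highest on day 16 (2.14 TPM), with 1.00 TPM at the start and 0.973 TPM at the end. Its 3 profiles spread widely, with an SD of 1.75 TPM around the day 14 value of 1.78 TPM, and early and late days overlapped. In CPM, which do not account for length, the order of days was another: 0.189 on day 2, 1.24 on day 8, the highest, and 0.793 on day 18. Car9 has 8 annotated transcripts, and its TPM on a day depends on how the counts were shared among them.

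Car12 was lower at the end than at the start. It measured 1.90, 2.45 and 2.33 TPM on days 2, 4 and 6, and 1.66, 0.801 and 0.989 TPM on days 8, 10 and 12. It then measured 0.510, 1.03 and 0.549 TPM on days 14, 16 and 18, each below its lowest early day. Counts per day were 39 to 224. In CPM, day 2 was at 2.22, below 5.18 on day 4 and 5.19 on day 6, and day 18 was at 1.08. Car12 has 5 annotated transcripts, so its TPM also depends on how the counts were shared among them.

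The 250 bases before the Car9 start are shown because the oxygen-sensing factors bind a short core, ACGTG or GCGTG, in such regions. The RefSeq sequence (build GRCm38.p6, another build than that of the files, chr4:43506776-43507025, plus strand) is printed with matches to either core on either strand in capitals.
Car9 promoter: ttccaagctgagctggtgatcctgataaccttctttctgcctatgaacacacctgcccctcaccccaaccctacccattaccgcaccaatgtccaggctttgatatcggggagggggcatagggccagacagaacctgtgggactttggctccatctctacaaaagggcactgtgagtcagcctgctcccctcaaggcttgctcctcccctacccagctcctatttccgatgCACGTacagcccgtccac
It held 1 match, CACGT, which reads ACGTG on the other strand and begins 18 bases before the start. Of 32851 mouse promoters of the same length, 38.6% held either core and 16.6% held ACGTG, and the Car12 and Car4 windows held 0 matches. Other windows of the family held matches too, with 5 for Car5b, 2 for Car6 and 1 in the first of the windows for Car11. The 2 for Car6 overlap in 1 CACGTG, which reads the same on both strands. No window was available for Car2, Car3, Car8 and Car13. A match of these letters is not a binding site shown by the data.

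Car4, anchored to the outer membrane face by a lipid, and Car6, secreted in saliva, had few counts. Car4 had 2 counts, both on day 10, and 0 on the other 8 days, which allows up to 0.0484 to 0.101 CPM on those days. Car6 had 16 counts in all, with 7 on day 4 as its highest and 0 on days 10, 12 and 14. The same interval reached up to 0.164, 0.0595 and 0.0817 CPM on these 3 days. Neither gene passed the filter on low counts, and no change was fitted for them.

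Car8 and Car11 are carbonic anhydrase-related proteins, and their levels ran in opposite directions between the first and the last days. Car8, known from Purkinje cells where it binds an inositol trisphosphate receptor, measured 8.12, 2.65 and 2.38 TPM on days 2, 4 and 6. It was at 0.719, 0.670 and 0.813 TPM on days 8, 10 and 12, and at 0.632, 1.19 and 1.17 TPM on days 14, 16 and 18. Day 2 stood far above all other days, with 843 counts against 265 on day 4, and every late day was below every early day. Day 2 was 6.95-fold higher than day 18.

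Car11, a secreted related protein, went the other way. It measured 0.218, 0.727 and 0.676 TPM on days 2, 4 and 6, from 5, 17 and 15 counts. It was at 1.08, 3.11 and 5.68 TPM on days 8, 10 and 12, and at 6.66, 6.82 and 8.49 TPM on days 14, 16 and 18. Late days all lay above early days, and day 18 was 39.0-fold higher than day 2, a ratio that rests on 5 counts at its lower end, with 0.118 CPM (95% interval 0.0384 to 0.276). On day 18 its profiles had an SD of 2.80 TPM.

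Ordered by mean level over the 9 days, the members stood at 99.6 TPM for Car3, 26.9 for Car13, 7.20 for Car5b, 3.72 for Car11, 2.04 for Car8, 1.41 for Car9, 1.36 for Car12, 0.206 for Car2, 0.0905 for Car6 and 0.0321 for Car4. Most neighbours in that order overlapped over the days. Car3 was above Car13 on 4 of 9 days, Car11 above Car8 on 6, Car8 above Car9 on 4 and Car9 above Car12 on 5. Car13 was above Car5b, Car5b above Car11 and Car12 above Car2 on 9 of 9 days, and only for Car12 and Car2 did the ranges over days stay apart. Car13 and Car5b were at 1 TPM or more on every day, and Car2, Car4 and Car6 on no day.

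The make-up of the family changed with these levels. The 16 carbonic anhydrases summed to 32.6 TPM at the start, 50.7 TPM by day 10, 102 TPM by day 12 and 508 TPM at the end. Car3 made up 2.47% of that sum at the start, 0.769% on day 6, 44.3% by day 12 and 86.1% at the end. Car13 made up 32.3% at the start, 61.1% on day 8 and 7.70% at the end. Without Car3 the sum was 31.8 TPM at the start and 70.8 TPM at the end.

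**Figure D2:**
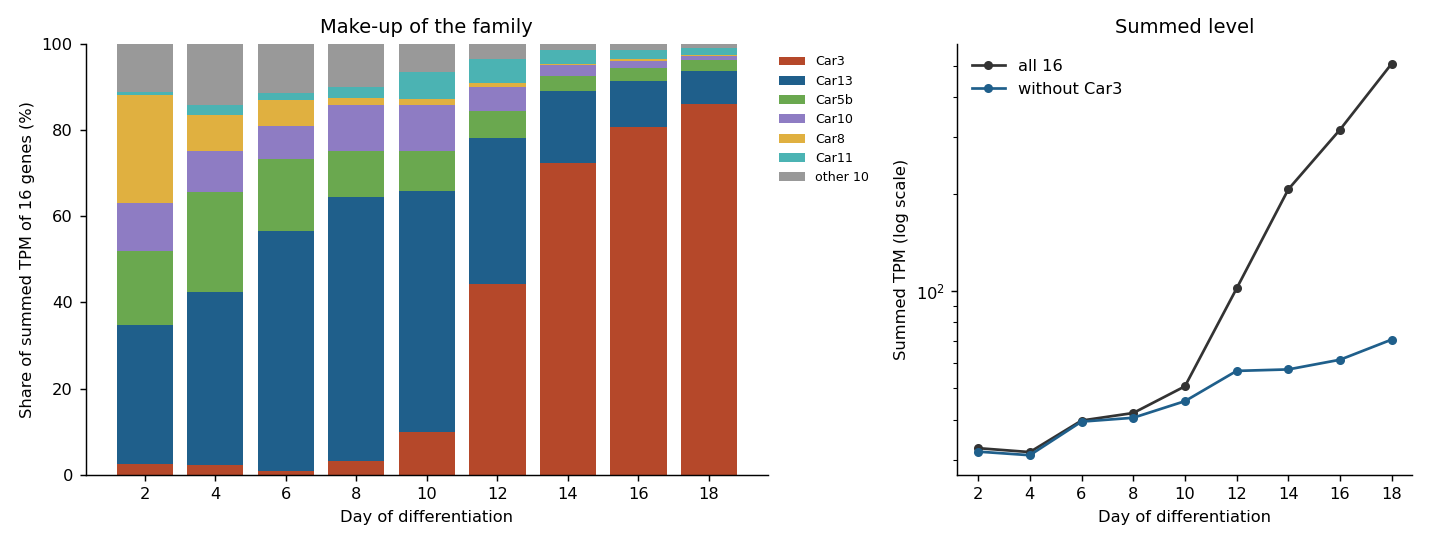
Left, the share of the summed TPM of 16 carbonic anhydrases (%, vertical axis) held by each gene on each day (horizontal axis, bars start at 0). Right, the summed TPM (log scale) with and without Car3; Car13 is the largest part from day 2 to day 10, Car3 from day 12 on, and the sum reaches 508 TPM with Car3 and 70.8 TPM without it.

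The shares are relative, so the fall of the Car13 share after day 8 accompanied a Car13 level that did not fall below 25.6 TPM.

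A straight line in day, fitted to the log counts of the 9 summed libraries for all 15659 genes that passed the filter, gave 1 value of change per gene from day 2 to day 18. Of the 10 members, 8 passed this filter. The fitted log2 change was 11.52 ± 1.10 (SE) for Car3, 5.03 ± 0.54 for Car11 and 1.68 ± 0.27 for Car13. It was 1.00 ± 0.71 for Car9 and 0.82 ± 0.32 for Car5b. It was -1.82 ± 0.97 for Car2, -2.30 ± 0.55 for Car12 and -2.73 ± 0.69 for Car8. For Car3 the line spans more than the 543-fold ratio of the measured days, because its course was not straight on the log scale, with its steepest steps between days 6 and 12. Without day 2 the fitted value was -1.47 for Car8 and 0.15 for Car9, and without day 18 it was 0.36 for Car5b.

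**Figure D3:**
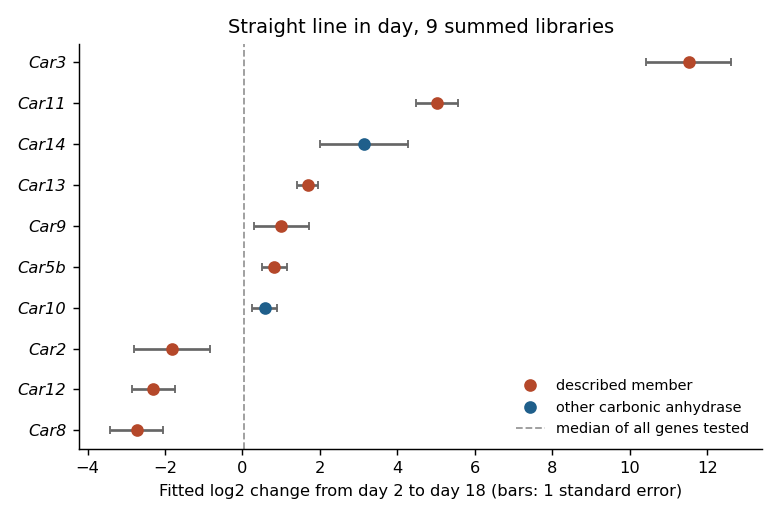
Fitted log2 change from day 2 to day 18 (horizontal axis) of the 10 carbonic anhydrases that passed the count filter, with bars of 1 SE. The described members are red, Car10 and Car14 blue, and the dashed line is the median of all genes tested, 0.05; Car3 lies at 11.52 and Car8 at -2.73.

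Over all genes tested, 28.3% rose and 26.1% fell past an adjusted p of 0.05 on this line (edgeR quasi-likelihood test, Benjamini-Hochberg), 54.3% together. No call is given for the members, which were chosen from these same measurements. The marker and pathway lists used below were also chosen with earlier results of these data known. The pathway genes named from them were picked for a large change, so their adjusted p-values are descriptive. Days 14 to 18 lay all above days 2 to 6 for 3 of the 8 members that passed the filter, beside 32.4% of all genes tested. They lay all below for 2 of the 8, beside 25.6%, and nothing is read from those counts.

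Among themselves the members fell into courses that went up and courses that went down. Over the 9 days, with log2(TPM + 0.5), Pearson's r was 0.95 for Car3 with Car11, 0.90 for Car11 with Car13 and 0.79 for Car3 with Car13. It was 0.65 for Car8 with Car12, -0.90 for Car11 with Car12, -0.86 for Car3 with Car12 and -0.86 for Car8 with Car13. Car5b with Car8 was near 0, at -0.02. These values describe 9 libraries in time order, which share their scaling, and any pair of genes that drifts with time correlates.

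For each member with a mean of at least 1 TPM, the 3 genes with the most similar course were taken from 7612 genes with a mean of at least 10 TPM. For Car3 they were Plin1 (r = 0.996 over 9 days), which coats lipid droplets, Gpd1 (0.996), the cytosolic glycerol-3-phosphate dehydrogenase, and Cd36 (0.995), a fatty acid carrier. Plin1 is also on the adipocyte marker list used below. For Car11 they were Ppap2b (0.998), Aldh6a1 (0.996) and the secreted glutathione peroxidase Gpx3 (0.996). For Car13 they were Fam102a (0.991), Mecom (0.991) and Ptov1 (0.990).

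The genes nearest to the members that were lower on late days were Pitpna (0.985), Fez2 (0.981) and Stk40 (0.974) for Car8, and Mzt1 (0.991), March5 (0.982) and Arpc3 (0.981) for Car12. Car9 was nearest to 2700007P21Rik (0.966), Ephb2 (0.951) and Gltscr2 (0.943), and Car5b to 2010107H07Rik (0.945), Cmtm6 (0.918) and Gabarapl1 (0.911). With 9 points many genes reach such values, and which 3 came first depended on the setting. For Car3, 1 to 3 of the 3 were kept when another pseudocount or unit was used or a day was left out, and for each of the other 6 members as few as 0.

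Markers of other cell types changed in the same libraries as Car3. The 9 adipocyte markers summed to 8.84 TPM at the start, 4.44 TPM on day 6, 33.2 TPM by day 10, 142 TPM by day 12 and 507 TPM at the end, and all 8 that could be tested rose. Adipoq, which encodes the hormone adiponectin, rose from 0.204 to 92.0 TPM between days 2 and 18 (fitted log2 change 12.17 ± 1.08, adjusted p = 2.71e-05). Pparg, the master regulator of fat cell formation, went from 5.15 to 35.1 TPM with 1.88 TPM on day 6. The adipocyte sum and Car3 correlated at r = 0.99 over the 9 days, and both had their lowest value on day 6.

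Skeletal muscle is another tissue rich in Car3. Its 14 markers summed to 6.03 to 15.1 TPM, with 6.5 to 15.1 TPM on days 2 to 6 and 7.71 to 8.45 TPM on days 14 to 18. Of the 7 tested, Myh1 and Myh8 rose and Acta1 fell, and Ckm, the muscle creatine kinase, had 0 counts in every library. The correlation of the muscle sum with Car3 was -0.21. That sum joined genes that moved in opposite directions, so the correlation does not describe single muscle genes. Acta1 was at 5.56 TPM on day 2, 13.8 of the 15.1 TPM on day 4 and 0.388 TPM on day 18. Myh1 was at 0.153 TPM on day 2 and made up 4.79 of the 8.45 TPM on day 18.

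Markers of monocytes and macrophages summed to 24.1 TPM on day 2 and 2014 TPM on day 18, and 6 of the 7 tested rose. Lyz2 made up 19.9 TPM of the day 2 sum and 1855 TPM of the day 18 sum. The correlation of the summed markers was 0.96 with Car3 and 0.98 with Car11, which mainly describes Lyz2. The osteoclast marker sum, mostly Ctsk, correlated at 0.90 with Car3, 0.98 with Car11, 0.96 with Car13 and -0.81 with Car8. The osteoblast marker sum correlated at 0.81 with Car3, 0.94 with Car11, 0.96 with Car13 and -0.88 with Car8, and 7 of the 10 markers rose. Most of that sum was Col1a1 and Col1a2, so these correlations mainly describe the collagen genes. What part any of these cells had in the level of a carbonic anhydrase was not tested.

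**Figure D4:**
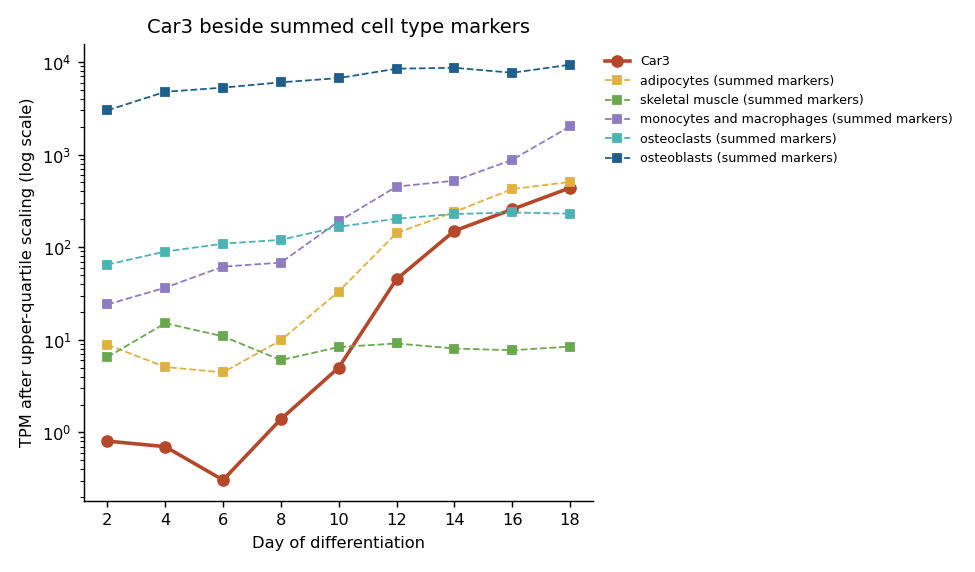
Car3 (red circles) and the summed markers of 5 cell types (squares) by day of differentiation, in TPM after upper-quartile scaling on a log scale. Car3 and the adipocyte sum are both lowest on day 6 and reach 437 and 507 TPM on day 18, while the muscle sum stays between 6.03 and 15.1 TPM.

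The plot of Car3 beside marker sums shows 9 libraries, 1 per day, and no spread is drawn because no day has a second library.

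Of the other 6 carbonic anhydrases, 2 passed the filter. Car10, a related protein with a histidine codon at 1 of the 3 zinc positions, was between 3.02 and 5.82 TPM on all days, with a mean of 4.43 TPM, above the means of Car11, Car8, Car9 and Car12, and did not pass the test (fitted log2 change 0.57 ± 0.32, adjusted p = 0.158). Car14, a membrane enzyme, passed the test with a fitted rise (3.13 ± 1.13, adjusted p = 0.0372), at 0.178 TPM on day 2 and 2.20 TPM on day 18. Its course was not steady, with 0.0961 TPM on day 12 and 0.129 TPM on day 14, both below day 2. Day 18 held 66.5 of the 121.68 Car14 counts, and its counts were not whole in 18 of 27 profiles. Its call was lost without day 4, without day 6 and without any 1 of the 3 profiles of each day, as 0 of the 6 genes were then called. Car1, Car5a, Car7 and Car15 did not pass the filter on low counts, with totals of 3, 1.66, 39 and 71.76 counts.

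Enzymes that make bicarbonate and protons work beside transporters of both. Of 10 bicarbonate transporters, 7 were tested, 2 rose and 2 fell, with a median log2 change of 0.29 against 0.05 over all genes. Between days 2 and 18 Slc4a10 rose from 2.09 to 31.0 TPM (4.45 ± 0.56, adjusted p = 0.000141), and Slc4a4 from 5.41 to 12.5 TPM (0.91 ± 0.32, adjusted p = 0.0333). Both carry sodium with bicarbonate. Slc4a7, a sodium bicarbonate cotransporter, went from 10.1 to 5.2 TPM (-1.19 ± 0.19, adjusted p = 0.000475). Slc4a8 passed with -1.30 ± 0.42 (adjusted p = 0.0225) at 0.909 TPM on day 2 and 0.642 TPM on day 18. Its TPM did not fall steadily, with 0.185 on day 12, its lowest, and 0.983 on day 16, its highest. Without day 2, 2 of the 7 were called.

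Of 9 sodium-proton exchangers, which remove protons from the cell or load organelles with them, 7 were tested. Slc9a9 rose from 1.30 to 18.6 TPM (3.51 ± 0.64, adjusted p = 0.00107) and Slc9a7 from 0.192 to 1.68 TPM (3.01 ± 0.46, adjusted p = 0.000418), both exchangers of organelle membranes. Slc9a2 fell from 1.07 to 0.0564 TPM (-4.58 ± 0.83, adjusted p = 0.00104), and the median of the list was 0.15. Of 6 genes for lactate transport, which moves a proton with each lactate, 5 were tested and 4 rose, with a median of 1.30. Emb, a partner of the transporters, rose from 15.9 to 338 TPM (4.84 ± 0.48, adjusted p = 5.01e-05), and Slc16a7 from 2.22 to 11.4 TPM (2.90 ± 0.37). Bsg, the partner basigin, rose from 283 to 687 TPM (1.30 ± 0.14, adjusted p = 6.52e-05).

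The vacuolar proton pump, which acidifies lysosomes and the space beneath osteoclasts, had 22 of 25 subunit genes tested, with 4 that rose and 5 that fell and a median of 0.15. Atp6v1c2 rose from 0.0702 to 3.82 TPM (6.45 ± 1.00, adjusted p = 0.000447) and Atp6v0d2, abundant in osteoclasts and macrophages, from 0.0129 to 3.43 TPM (5.21 ± 0.73, adjusted p = 0.000255). Atp6v1g2 also passed (0.96 ± 0.34, adjusted p = 0.0364). Tcirg1, a subunit best known from osteoclasts, fell from 13.5 to 9.62 TPM (-1.75 ± 0.37, adjusted p = 0.00262), with 22 TPM on day 6. Atp6v1c1 (-0.71 ± 0.18) and Atp6v1h (-0.68 ± 0.12) fell as well.

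Of 16 genes known, as Car9 is, to respond to low oxygen, 15 were tested, 4 rose and 7 fell, with a median of -0.90. Hk2, a hexokinase, fell from 9.26 to 2.21 TPM between the first and last day (-2.68 ± 0.38, adjusted p = 0.00025), Adm, the peptide adrenomedullin, from 38.1 to 9.30 TPM (-2.52 ± 0.44, adjusted p = 0.00084), and Slc2a1, a glucose transporter, from 29.3 to 8.34 TPM (-2.16 ± 0.19, adjusted p = 2.65e-05). Ndrg1 rose from 5.45 to 52.7 TPM (4.54 ± 0.77, adjusted p = 0.000703), Pdk1 from 1.78 to 8.08 TPM (2.79 ± 0.44, adjusted p = 0.000481) and Bnip3 from 13.8 to 30.1 TPM (1.03 ± 0.17, adjusted p = 0.000568). The Car9 level lay beside genes that moved both ways. Its TPM was 1.00 on day 2 and 0.973 on day 18, but its CPM was 0.189 and 0.793, from 8 and 35.28 estimated counts.

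**Figure D5:**
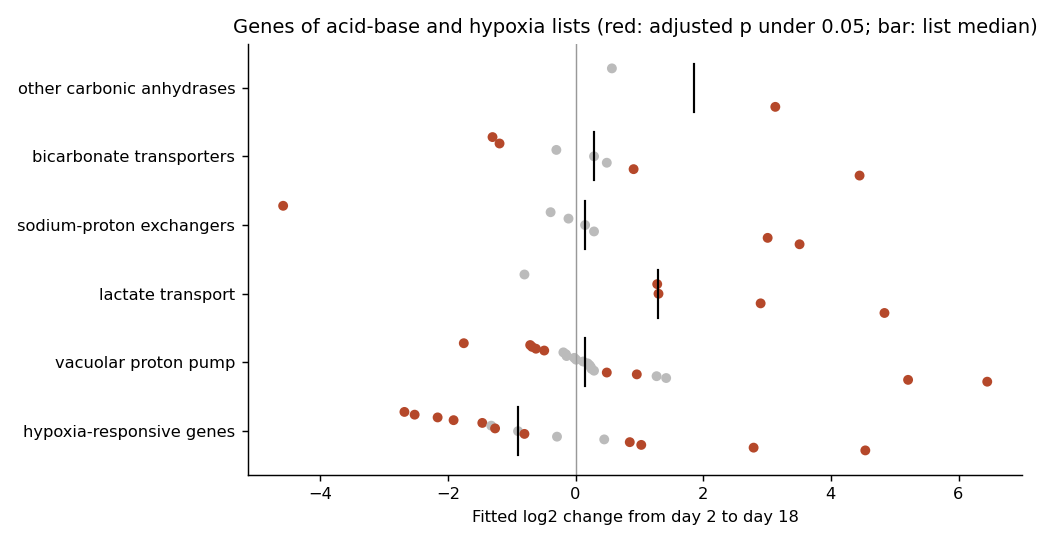
Fitted log2 change from day 2 to day 18 (horizontal axis) of each tested gene of 6 lists around carbon dioxide, protons and oxygen, 1 point per gene and 1 row per list. Red points passed an adjusted p of 0.05 and the bar is the list median, which is 1.30 for lactate transport and -0.90 for hypoxia-responsive genes.

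In the plot of the pathway lists, each list except lactate transport and the other carbonic anhydrases held genes that passed the test in both directions. Over all genes tested the shares were 28.3% risen and 26.1% fallen.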

How the data were processed

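Total RNA was sequenced in 27 profiles, 3 for each of 9 days. Per the labels and methods, the authors aligned reads to transcripts of mouse build NCBIM37 with Bowtie 0.12.9 and quantified them with RSEM 1.2.8 (versions as in the submitters' processing notes; the methods name another RSEM release), and deposited for every gene an estimated count (expected count), a TPM and an FPKM value. The FPKM values entered only as an alternative unit for the members' levels. TPM values were scaled to a common upper quartile (the 75 percentile of genes above 0) and averaged over the 3 profiles of a day. Estimated counts were summed over the 3 profiles, since these behave as 1 library, and rounded for the tests.

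The fit was edgeR 4.0.16 (R 4.3.3), quasi-likelihood F test of a straight line in day with upper-quartile factors, genes kept by filterByExpr with a minimum count of 10, and Benjamini-Hochberg adjustment over all 15659 genes tested. The SE is the fitted change divided by the square root of F, and a p-value measures scatter around the line, since days have no replicates. The fit was tested on simulated data. DESeq2 1.42.0, other normalization, other filters and libraries left out were tried as alternatives. Early days are 2 to 6 and late days 14 to 18. Counts per day ran from 22470195 to 62009157, and the Poisson intervals (95%) and the limit of 3 counts hold no error beyond that of counting.

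Members were all 10 named carbonic anhydrases. Other genes named are, per member with a mean of at least 1 TPM, the 3 with the highest correlation of log2(TPM + 0.5), and per pathway list at most 3 risen and 3 fallen genes with the largest change past the threshold, plus the other carbonic anhydrases and the defining markers of cell types. The members and lists were chosen with earlier results of these data known. Adipoq, Pparg and Plin1 stand for the adipocyte list. Zinc-site codons were aligned by translation and read from the NCBIM37 coding sequences, and the Car8 stretch is not reported here. Promoters came from RefSeq, GRCm38.p6.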

Additional observations from a re-analysis of the deposited data

How the results depend on the processing

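Of 529 values recomputed under the alternatives, 418 stayed within the margin, 111 moved and 0 reversed. The count of genes that follow day, 8510, ran from 7187 to 10881. Fitted log2 changes ran from 8.79 to 13.01 for Car3, 3.85 to 5.50 for Car11, 1.19 to 1.88 for Car13, 0.36 to 1.03 for Car5b, 0.15 to 1.81 for Car9, -2.77 to -0.09 for Car2, -2.91 to -1.07 for Car12 and -3.48 to -1.47 for Car8. Of the other carbonic anhydrases, 1 was called, against 0 with a minimum count of 50, 0 without day 4, 0 without day 6, 0 (lowest and highest) without 1 replicate, and 2 with a natural spline. Without day 2, 2 bicarbonate transporters were called in place of 4 (3 to 5 without 1 replicate), and with a minimum count of 50, 1 sodium-proton exchanger in place of 3. The cause was not tested. Replicate numbers did not pair the profiles (mean correlation of deviations 0.00566 for the same number, -0.00283 for different numbers). Treating the 27 profiles as samples gave 10754 genes and 18 proton pump genes, in place of 9, without a block, and with the replicate block 10881 genes, 17 proton pump genes and 2 other carbonic anhydrases. Depth limits Car2, Car4 and Car6, which had few counts, with a floor of 0.0484 to 0.134 CPM.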

Other observations

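Of 7 chondrocyte markers, 6 were tested, 4 rose and 1 fell, and their sum was lowest on day 6 (110 TPM) and highest on day 12 (199 TPM). Of 5 endothelial markers, 3 were tested, 2 rose and 1 fell, and their sum was lowest on day 2 (3.24 TPM) and highest on day 14 (12.0 TPM). Car12 correlated with these sums at -0.93 and -0.90 over the 9 days, and Car3 at 0.83 with each. Of 8 erythroid markers 2 were tested, and edgeR called 0 of them, with an adjusted p of 0.0931 for Rhag.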
